A study of Mus musculus with 8 samples.

Results

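Immediate-early genes are transcribed within minutes of a stimulus from factors that the cell already holds, chiefly serum response factor (SRF) with its ternary complex partners, which bind the CArG box, and CREB, which binds the cAMP response element. Their mRNAs are short-lived, so that their level follows recent signalling, and they are also known to be induced while a tissue is taken apart into single cells. Many of their products are transcription factors: the Egr proteins are zinc finger factors that bind a GC-rich site, and the Fos and Jun proteins pair into AP-1, which binds its own site and is a known partner of NF-κB in the activation of dendritic cells (DCs). Here 10 such genes were followed in splenic DCs: *Egr1*, *Egr2*, *Egr3*, *Fos*, *Fosb*, *Jun*, *Junb*, *Atf3*, *Ier2* and *Dusp1*. They were chosen by name, with earlier results of these data known, among 22180 genes that had a probe set annotated with 1 symbol. Each of the 10 was represented by 1 probe set of the 41345 in the table, so no choice between probe sets was needed.

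DCs from mouse spleen were profiled on 8 Affymetrix Mouse Gene 2.0 ST arrays, and all mice were on the C57BL/6 background and 8 weeks old. WT DCs came from *Lkb1*f/f mice (3 arrays), which carry floxed alleles of the kinase gene *Lkb1* (*Stk11*) and no Cre. Lkb1-deficient DCs came from *Cd11c*Cre*Lkb1*f/f mice (3 arrays), in which Cre made under the *Cd11c* promoter acts in every cell that expresses CD11c, macrophages included. A control array and an LPS array (1 each) held DCs from wild type C57BL/6 mice, untreated or given the bacterial endotoxin LPS overnight. For the LPS mice a figure legend of the study names *Lkb1*f/f as the genotype, whereas the labels give wild type. The labels number the WT and Lkb1-deficient arrays 1 to 3 but do not state that each array is a separate mouse, so p-values measure the spread between these arrays only. The values are deposited log2 signals, 1 unit being a 2-fold change. A level is not comparable between genes. Between arrays it is comparable for 1 probe set only with caution, because array medians differed and the normalization between arrays is not stated.

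Promoter sequence was matched for 7 of the 10 genes in the RefSeq table for GRCm38.p6, and *Egr1*, *Egr3* and *Ier2* were not matched. Shown here are the 250 bases before the annotated start of 4 genes, the Egr factor *Egr2*, the AP-1 subunits *Fos* and *Fosb*, and the phosphatase *Dusp1*, 5′ to 3′ on the strand of the gene. Capitals mark the letters of motifs found in them: the CArG box, the cAMP response element (TGACGTCA, or its first letters TGACG), the Egr site (GCGTGGGCG or GCGGGGGCG) and the TATA box (TATAAA).
*Egr2* (chr10:67537619-67537868, plus strand): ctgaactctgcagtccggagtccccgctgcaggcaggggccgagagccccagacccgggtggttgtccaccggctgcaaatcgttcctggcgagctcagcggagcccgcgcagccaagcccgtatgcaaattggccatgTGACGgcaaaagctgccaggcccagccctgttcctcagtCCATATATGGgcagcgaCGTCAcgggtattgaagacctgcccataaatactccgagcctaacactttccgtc
*Fos* (chr12:85473640-85473889, plus strand): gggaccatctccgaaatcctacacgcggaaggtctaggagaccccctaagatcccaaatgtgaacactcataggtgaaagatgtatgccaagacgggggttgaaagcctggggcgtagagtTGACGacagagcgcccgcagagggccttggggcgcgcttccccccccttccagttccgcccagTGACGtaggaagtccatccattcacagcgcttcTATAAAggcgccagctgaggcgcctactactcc
*Fosb* (chr7:19310046-19310295, minus strand): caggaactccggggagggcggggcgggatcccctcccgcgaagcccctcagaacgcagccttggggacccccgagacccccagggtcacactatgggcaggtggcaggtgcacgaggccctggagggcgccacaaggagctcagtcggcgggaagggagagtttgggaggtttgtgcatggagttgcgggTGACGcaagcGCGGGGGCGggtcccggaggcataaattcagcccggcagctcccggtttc
*Dusp1* (chr17:26508473-26508722, minus strand): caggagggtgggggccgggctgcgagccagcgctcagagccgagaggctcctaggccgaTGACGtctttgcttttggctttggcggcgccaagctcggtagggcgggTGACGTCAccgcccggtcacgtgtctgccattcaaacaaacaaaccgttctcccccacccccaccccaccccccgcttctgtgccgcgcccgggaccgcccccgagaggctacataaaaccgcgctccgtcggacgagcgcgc
The *Egr2* start carries the CArG box CCATATATGG at −72, counted from the annotated first base as 0, between TGACG at −111 and its reverse complement at −55. *Fos* has TGACG at −129 and −66 and TATAAA at −33, *Fosb* has TGACG at −60 next to GCGGGGGCG at −50, and *Dusp1* has the full TGACGTCA at −143.

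Motifs were searched on both strands in windows of 300 bases around each annotated start, and TGACG matches include those inside TGACGTCA. A CArG box was found for 1 of the 7 genes, *Egr2* (in 4 of its 5 annotated starts, which overlap in part), against 1.63% of all 32851 windows. TGACG was found for 6 of the 7, *Jun* being the exception, against 20.8% of windows, and the full TGACGTCA for *Dusp1* only, against 1.79%. An Egr site was found for *Fosb* only (3.47% of windows) and TATAAA for *Fos* and *Junb* (13.6%). The AP-1 site TGACTCA was found for 0 of the 7, against 5.2% of windows. Counts are per gene, with 5 windows for *Egr2*, whereas the shares are per window. The windows ran from 250 bases before to 50 after the start, so a motif farther away was not searched for. A match describes the letters of the window and is not a measured binding site.

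The arrays differed in ways that touch these genes. The median log2 signal was 4.64, 4.09 and 3.40 for WT replicates 1 to 3 and 4.59, 4.07 and 3.35 for Lkb1-deficient replicates 1 to 3, so the same-numbered arrays were close to each other and the pair numbered 3 was the dimmest. Differences are therefore given within each replicate number, which is called a pair here from the values alone. Neutrophil markers stood apart in pair 3: their mean lay 4.66 (WT) and 4.50 (Lkb1-deficient) log2 units above the array median, against −0.35 to 0.92 on the other 6 arrays. B cell markers were also highest there, at 4.79 and 4.28. So were T cell markers (2.66 and 2.76), NK cell markers (2.08 and 1.15) and plasmacytoid DC markers (3.41 and 3.64). These values are relative to array medians, which were lowest in pair 3. DC markers (*Itgax*, *Flt3*, *Zbtb46*, *H2-Ab1*, *H2-Aa*, *Dpp4*) were high on all arrays, 5.28 to 6.38 above the median. *Stk11* itself read 6.73, 6.83 and 5.96 in WT and 6.67, 6.41 and 5.55 in Lkb1-deficient DCs, and because the location of the probes relative to the deleted exons is not given in the sources used here, this does not check the genotype labels. Between the control and LPS arrays 18249 of 33649 values (54.2%) were equal to the last digit, but none of the 10 genes was among them.

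All 10 genes were well above the array median in untreated DCs, by 2.31 to 8.08 log2 units. In the comparison of genotypes, the mean of the Lkb1-deficient arrays was below the WT mean for 10 of 10 genes, and 8 of 10 were lower in all 3 pairs (all but *Fos* and *Junb*), against 16.9% of all probe sets. The difference was concentrated in the Egr genes: *Egr1*, *Egr2* and *Egr3* were at least 1.5-fold lower in each of the 3 pairs, and none of the other 7 genes was, against 0.31% of all probe sets. No member was called at an adjusted p under 0.05, by limma without the replicate number (0.00967% of 41345 probe sets called, in either direction) or with it as a block (0.23% called).

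**Figure D1:**
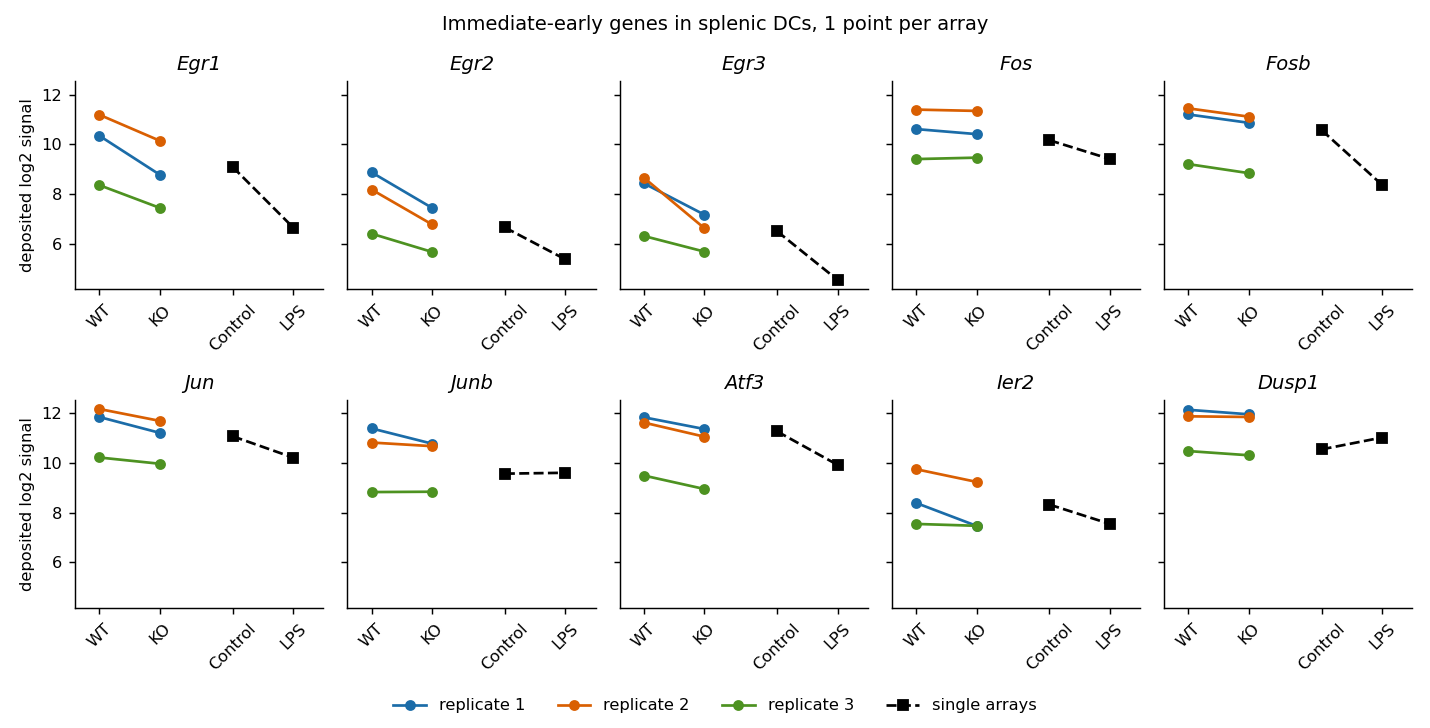
Deposited log2 signal (vertical axis) of each of the 10 genes on the 8 arrays, with a panel per gene. Coloured points are the 3 WT and 3 Lkb1-deficient (KO) arrays, joined by replicate number, and black squares are the single control and LPS arrays; the lines of the Egr genes slope down from WT to KO in all 3 pairs, and replicate 3 has the lowest WT value in every panel.

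*Egr1*, the most widely used marker of immediate-early induction, read 10.35, 11.20 and 8.36 in WT DCs (replicates 1 to 3) and 8.77, 10.15 and 7.44 in Lkb1-deficient DCs. The groups overlapped, because the levels moved together within a pair: each Lkb1-deficient array was below its own WT array but KO 2 was above WT 3. The pair differences were −1.58, −1.05 and −0.92, a mean of −1.18 ± 0.35 (SD, n = 3 pairs), which is 2.27-fold lower. The adjusted p was 0.104 by limma with the replicate block (unadjusted p = 0.000564) and 1 without it (unadjusted p = 0.0608).

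*Egr2*, a zinc finger factor of the same family known for its part in myeloid and lymphoid development, read 8.87, 8.18 and 6.40 in WT and 7.44, 6.77 and 5.66 in Lkb1-deficient DCs. Its pair differences were −1.44, −1.41 and −0.74, a mean of −1.19 ± 0.40 (SD, n = 3 pairs) or 2.29-fold lower, with an adjusted p of 0.112 by limma with the block. *Egr3*, which like *Egr2* is known to restrain T cell activation, read 8.43, 8.66 and 6.31 in WT and 7.16, 6.62 and 5.68 in Lkb1-deficient DCs. The difference of *Egr3* was the largest of the 10 genes and the most uneven, at −1.27, −2.04 and −0.63, a mean of −1.31 ± 0.70 (SD, n = 3 pairs) or 2.48-fold lower. Its adjusted p by limma was 0.208 with the block. Without the block *Egr3* was the only member below 0.05 before adjustment (limma, unadjusted p = 0.0374). Among all 41345 probe sets the mean differences of *Egr3*, *Egr2* and *Egr1* were the 21st, 31st and 35th lowest. The WT and Lkb1-deficient levels of *Egr2* and *Egr3* overlapped as deposited, and they did not overlap once each array's median was subtracted (3.77 ± 0.68 against 2.62 ± 0.27 for *Egr2* and 3.75 ± 0.83 against 2.48 ± 0.14 for *Egr3*, SD, n = 3 each). These were the only 2 of the 10 genes separated in that way, against 4.43% of all probe sets, and without the subtraction the groups overlapped for all 10 genes, with 0.573% of probe sets separated.

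The AP-1 subunits showed smaller differences than the Egr genes in the same arrays. *Jun*, the main Jun subunit, read 11.85, 12.17 and 10.22 in WT and 11.21, 11.69 and 9.97 in Lkb1-deficient DCs. Its pair differences of −0.64, −0.48 and −0.25 averaged −0.46 ± 0.19 (SD, n = 3 pairs), with an adjusted p of 0.281 by limma with the block. *Junb*, a Jun subunit with weaker activating capacity, read 11.39, 10.82 and 8.82 in WT and 10.78, 10.68 and 8.84 in Lkb1-deficient DCs. The *Junb* difference rested mostly on pair 1 (−0.62, against −0.15 and 0.01), and its adjusted p with the block was 0.607.

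*Fos*, the prototype AP-1 partner of Jun, read 10.62, 11.40 and 9.41 in WT and 10.42, 11.35 and 9.47 in Lkb1-deficient DCs. Its differences of −0.20, −0.05 and 0.06 changed sign between pairs and averaged −0.07 ± 0.13 (SD, n = 3 pairs; adjusted p = 0.862 by limma with the block). *Fosb*, its close relative, read 11.21, 11.46 and 9.21 in WT and 10.87, 11.12 and 8.84 in Lkb1-deficient DCs. The *Fosb* difference was small but nearly the same in each pair, −0.34, −0.34 and −0.36, a mean of −0.35 ± 0.016 (SD, n = 3 pairs; adjusted p = 0.310). *Atf3*, a stress-induced partner of the Jun proteins and a known brake on Toll-like receptor responses, also differed little between pairs: 11.84, 11.63 and 9.49 in WT against 11.37, 11.06 and 8.95 in Lkb1-deficient DCs. Its pair differences were −0.47, −0.57 and −0.54, a mean of −0.53 ± 0.049 (SD, n = 3 pairs) or 1.44-fold lower, with an adjusted p of 0.175.

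*Ier2*, a nuclear protein induced together with the Egr genes, read 8.39, 9.75 and 7.54 in WT and 7.46, 9.23 and 7.46 in Lkb1-deficient DCs. Its difference was uneven between pairs (−0.93, −0.51 and −0.08) and averaged −0.50 ± 0.43 (SD, n = 3 pairs; adjusted p = 0.399 by limma with the block). *Dusp1*, the phosphatase that switches off p38 and JNK, was nearly level at 12.14, 11.88 and 10.48 in WT and 11.96, 11.85 and 10.31 in Lkb1-deficient DCs. The pair differences of *Dusp1* were −0.18, −0.03 and −0.17, a mean of −0.13 ± 0.087 (SD, n = 3 pairs; adjusted p = 0.701).

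Over the 10 genes the median difference was −0.48, against −0.02 over all probe sets, and by pair it was −0.63, −0.50 and −0.31. With the replicate block 7 of 10 genes were lower at an unadjusted p under 0.05 (all but *Fos*, *Junb* and *Dusp1*), against 6.22% of all probe sets. At 1.5-fold and an unadjusted p under 0.05, 3 of 10 were lower with the block, the Egr genes, against 1.42% of probe sets, and without the block 1 of 10, *Egr3*, against 0.0605%. The standard error without the block was 0.63 for every probe set, since limma pooled the spread fully, so that p then follows the size of the difference alone. With 3 arrays a side, 0.1 is the smallest p an exact unpaired permutation test allows, and permutation within the 3 pairs has a higher limit.

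**Figure D2:**
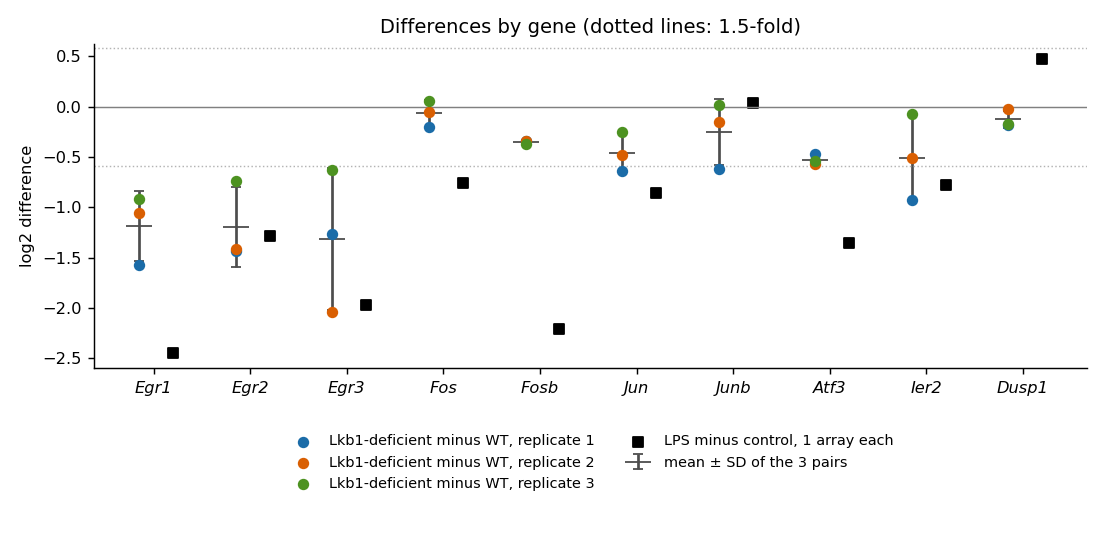
Log2 difference (vertical axis) of each of the 10 genes: circles are Lkb1-deficient minus WT in the 3 replicate numbers, with the mean and SD of the 3 pairs as a dark bar, and squares are LPS minus control (1 array each). The dotted lines mark 1.5-fold; the circles of *Egr1*, *Egr2* and *Egr3* all lie below the lower line, between −0.63 and −2.04.

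Markers of other cells were read on the same arrays. For reference, 16.9% of all probe sets were lower and 13.3% higher in all 3 pairs. Of 8 CD11b+ cDC2 markers 5 were lower and 2 higher in all 3 pairs in Lkb1-deficient DCs (median −0.28), and their mean above the array median went from 3.99, 4.25 and 3.58 in WT to 3.60, 3.65 and 3.55. The largest differences among them were those of *Cd4* (−1.15), *Dtx1* (−1.14), a Notch target, and *Clec4a4* (−0.94), a lectin of this subset, and the 2 that were higher were *Clec10a* (0.51) and *Itgam* (0.27), the CD11b gene. CD8+ cDC markers had 4 of 6 genes lower and 1 higher in all 3 pairs, with a smaller median difference (−0.16). Their mean above the array median was 3.66 to 4.14 in WT and 3.72 to 4.08 in Lkb1-deficient DCs. Of 12 macrophage and monocyte markers 6 were lower and 2 higher in all 3 pairs (median −0.17; mean 4.02, 5.18 and 5.04 against 3.99, 5.14 and 4.80). Among them *Adgre1*, the F4/80 gene, had a difference of −0.86, and *Ccr2*, a chemokine receptor of monocytes, of 0.47. Plasmacytoid DC markers were higher in all 3 pairs for 4 of 7 genes (mean 1.28, 2.56 and 3.41 against 1.98, 3.03 and 3.64), and *Cox6a2* among them was the one gene of all lists called with the block (5.11, 6.07 and 6.11 against 6.95, 7.93 and 7.49, adjusted p = 0.0334 by limma). T cell markers had 0 of 7 genes lower or higher in all 3 pairs, and NK cell markers 2 of 6 lower. The part of these cells in the lower Egr levels was not tested, and in bulk RNA fewer cells of a type and less RNA per cell cannot be told apart. For neutrophil markers 0 of 9 were lower or higher in all 3 pairs. Without pair 3, which was both neutrophil-rich and the dimmest, the mean difference was −1.31 for *Egr1*, −1.42 for *Egr2* and −1.65 for *Egr3*. The part of neutrophils in these differences was not tested.

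**Figure D3:**
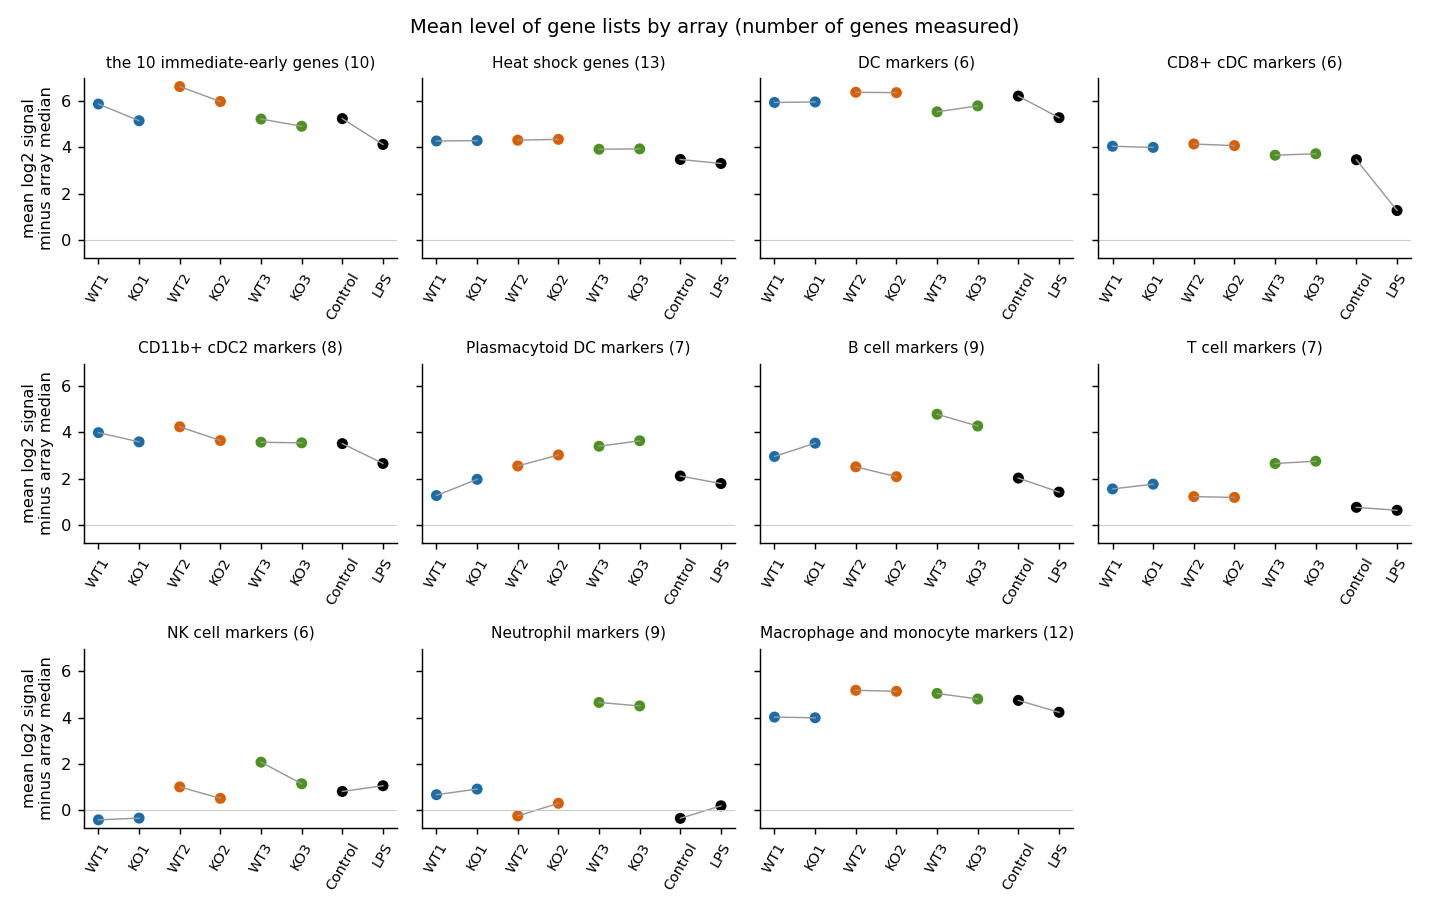
Mean log2 signal minus the array median (vertical axis) of the 10 immediate-early genes, of heat shock genes and of 9 lists of cell type markers on the 8 arrays; lines join same-numbered WT and KO arrays and the control and LPS arrays. The 10 genes are lower on the second array of each of the 4 couples, and the neutrophil panel shows replicate 3 apart from all other arrays, at 4.66 and 4.50.

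The LPS array was compared with the control array, with no replicate of either, so these differences carry no test. After LPS overnight 8 of the 10 genes were lower by at least 1.5-fold, against 3.95% of the 33649 probe sets with values on both arrays and 8.64% of the 15400 whose values differed, as those of all 10 genes did. By at least 2-fold 5 of 10 were lower, against 1.69% and 3.68% of the same probe sets. The exceptions were *Junb* and *Dusp1*, and 0 of the 10 were higher by 1.5-fold, against 3.63% and 7.94%. The median difference was −1.07 over the 10 genes and −0.012 over the probe sets whose values differed; over all probe sets it is 0, because more than 50% of the values are equal. The WT and control arrays are different arrays, so the comparison with LPS shares no array with that of the genotypes.

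*Egr1* had the largest difference, from 9.09 on the control array to 6.65 on the LPS array (−2.45, 5.46-fold lower). *Egr3* went from 6.50 to 4.53 (−1.97, 3.91-fold lower), which left it 0.39 above the median of the LPS array, and *Egr2* from 6.65 to 5.36 (−1.29, 2.44-fold lower). All 3 Egr genes were therefore lower on the LPS array than on any of the 7 other arrays. Among the AP-1 genes *Fosb* stood out, from 10.58 to 8.37 (−2.21, 4.64-fold lower), followed by *Atf3*, from 11.27 to 9.92 (−1.35, 2.55-fold lower). As deposited, the *Atf3* level on the LPS array was above those of WT 3 (9.49) and KO 3 (8.95). It was therefore within the range of the 7 other arrays. With array medians subtracted *Atf3* stayed within that range, above KO 3 only.

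*Jun* went from 11.08 to 10.21 (1.82-fold lower), *Ier2* from 8.32 to 7.54 (1.72-fold lower) and *Fos* from 10.17 to 9.41 (1.69-fold lower). As deposited, the LPS levels of these 3 genes lay within the range of the 7 other arrays, of which pair 3 was the dimmest. With array medians subtracted, *Ier2* (3.40) stayed within that range, whereas *Fos* (5.27, against 5.82 or more elsewhere) and *Jun* (6.08, against 6.62 or more) were lowest on the LPS array. *Junb* was level, at 9.57 and 9.60. *Dusp1* was 1.39-fold higher, at 10.55 and 11.02. The direction for *Junb* and *Dusp1* depends on the reference: against the mean of the control and the 3 WT arrays, with array medians subtracted, their differences were −0.68 and −0.37, and the other 8 genes were lower with either reference.

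The 2 comparisons can be set side by side because they use separate arrays. *Egr1*, *Egr2* and *Egr3* were at least 1.5-fold lower in all 3 pairs of genotypes and at least 1.5-fold lower on the LPS array, 3 of the 10 genes against 0.134% of the 33649 probe sets with values on all 8 arrays and 0.292% of those whose control and LPS values differed. The mean difference between genotypes and the difference with LPS were −1.18 and −2.45 for *Egr1*, −1.19 and −1.29 for *Egr2*, and −1.31 and −1.97 for *Egr3*. Among the AP-1 genes they were −0.07 and −0.76 for *Fos*, −0.35 and −2.21 for *Fosb*, −0.46 and −0.86 for *Jun*, −0.25 and 0.03 for *Junb*, and −0.53 and −1.35 for *Atf3*. For *Ier2* they were −0.50 and −0.78, and for *Dusp1* −0.13 and 0.48. The 3 Egr genes had the lowest values of the 10 between genotypes, whereas with LPS *Fosb* and *Atf3* were lower than *Egr2*. The difference between the effects was not tested, since the LPS effect rests on single arrays.

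**Figure D4:**
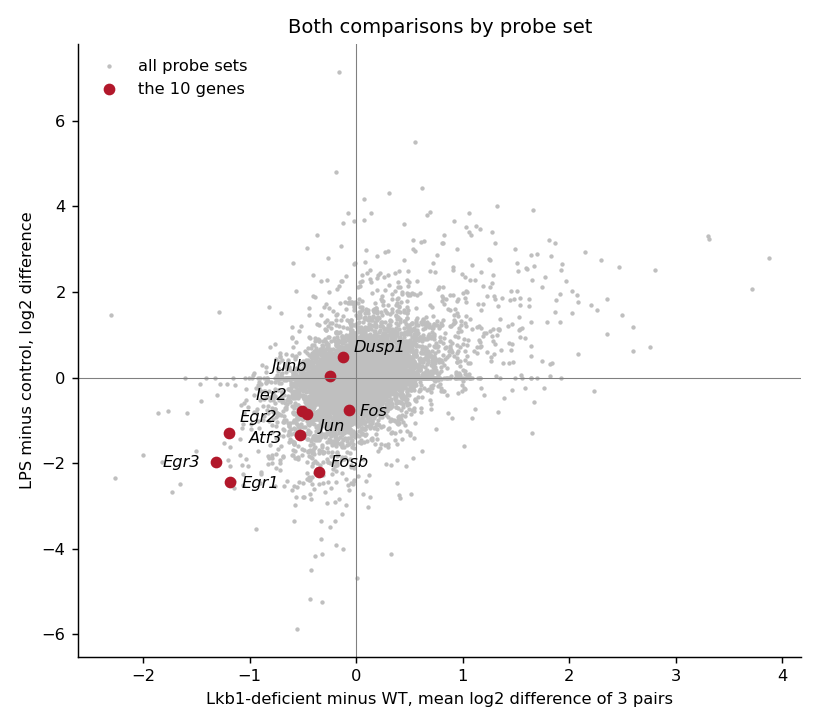
Lkb1-deficient minus WT (horizontal axis, mean log2 difference of 3 pairs) against LPS minus control (vertical axis, log2 difference) for all probe sets with values on the 8 arrays (grey) and the 10 genes (red). The Egr genes lie at the lower left, between −1.18 and −1.31 on the horizontal axis and between −1.29 and −2.45 on the vertical one, and *Junb* and *Dusp1* lie above 0 on the vertical axis.

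Cell type markers moved with the LPS comparison as well. For reference, 3.95% of all probe sets were lower and 3.63% higher at 1.5-fold. Among those whose values differed the shares were 8.64% and 7.94%. Of 6 CD8+ cDC markers 6 were at least 1.5-fold lower on the LPS array, their mean above the array median going from 3.47 to 1.27, with *Xcr1* from 7.24 to 3.32. Of 12 macrophage and monocyte markers 7 were lower and 2 higher at 1.5-fold (mean 4.74 and 4.23), and of 6 DC markers 3 were lower (mean 6.21 and 5.28), *Itgax*, the CD11c gene, by −2.73. CD11b+ cDC2 markers had 3 of 8 genes lower and 1 higher (mean 3.52 and 2.67). B cell markers had 4 of 9 lower and 1 higher (mean 2.03 and 1.43), and plasmacytoid DC markers 3 of 7 lower and 1 higher (mean 2.12 and 1.80). Neutrophil markers went the other way, with 4 of 9 higher and 0 lower at 1.5-fold and a median of 0.57, although their mean stayed near the array median on both arrays (−0.35 and 0.20). The part of cell composition in the lower immediate-early signal was not tested.

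The other immediate-early genes were taken from a list of 35, all measured. In Lkb1-deficient DCs 18 of 35 were lower in all 3 pairs and 6 higher in all 3, against 16.9% and 13.3% of all probe sets. The median difference of the 35 was −0.22. At an unadjusted p under 0.05 by limma with the block 12 were lower and 4 higher, against 6.22% and 5.21% of all probe sets, and at an adjusted p under 0.05 none was called with or without the block. The largest differences were those of *Rhob*, a small GTPase (−1.03, 2.04-fold lower), *Klf2*, a Krüppel-like factor that holds back NF-κB (−0.93), *Gadd45b*, a stress gene (0.93, 1.91-fold higher), and the cytokine gene *Tnf* (−0.87), with adjusted p of 0.107, 0.212, 0.180 and 0.194 by limma with the block.

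*Rhob* read 9.63, 9.07 and 7.33 in WT and 8.46, 7.85 and 6.63 in Lkb1-deficient DCs, and *Gadd45b* 9.28, 10.65 and 8.36 against 10.40, 11.11 and 9.57. *Rhob* was thus lower and *Gadd45b* higher within each pair, while the groups overlapped for both as deposited. With array medians subtracted *Rhob* no longer overlapped (4.63 ± 0.61 in WT and 3.64 ± 0.31 in Lkb1-deficient DCs, SD, n = 3 each), and *Gadd45b* still did. The neuronal family member *Egr4* was near the array median throughout, from 0.48 below it to 0.30 above it. On the LPS array 7 of the 35 were lower and 6 higher at 1.5-fold, with a median of 0, against 3.95% and 3.63% of all probe sets. The largest were *Socs3*, a feedback inhibitor of cytokine signalling (2.29, 4.90-fold higher), the nuclear receptor gene *Nr4a1* (−1.81), *Rgs2*, a regulator of G protein signalling (−1.51), and *Gadd45b* (1.30).

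**Figure D5:**
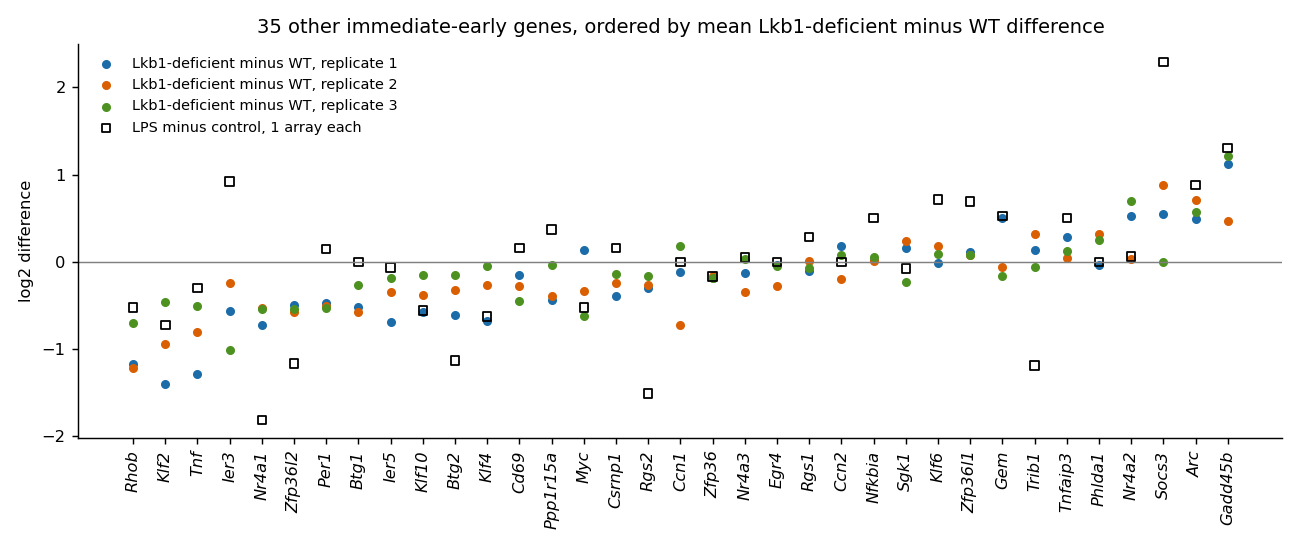
Log2 difference (vertical axis) of 35 other immediate-early genes, ordered by the mean Lkb1-deficient minus WT difference. Circles are the 3 replicate numbers and open squares LPS minus control (1 array each); *Rhob* lies at one end, with a mean of −1.03, and *Gadd45b* at the other, with 0.93.

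Of 13 other AP-1 subunits and dimer partners 12 were measured. In all 3 pairs 6 were lower and 1 higher, against 16.9% and 13.3% of all probe sets, with a median of −0.14. *Jund*, the constitutive Jun subunit, had the largest difference, −0.55 by its brighter probe set (adjusted p = 0.214 by limma with the block) and −0.92 by a second one (adjusted p = 0.195). With LPS 0 of these 12 genes were lower and 2 were higher at 1.5-fold, against 3.95% and 3.63% of all probe sets. Both were genes of partners of Jun: *Jdp2*, a repressor of AP-1, went from 5.66 to 8.73 (3.07, 8.42-fold higher) and *Batf* from 5.18 to 6.47 (1.29, 2.45-fold higher). The LPS array thus had lower values than the control array for *Fos*, *Fosb*, *Jun* and *Atf3* and higher values for *Jdp2* and *Batf*.

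Between genotypes, factors and kinases that induce or repress immediate-early transcription did not share the direction of the 10 genes. Of 14 measured (18 listed) 3 were lower and 6 higher in all 3 pairs, against 16.9% and 13.3% of all probe sets. Their median was 0.09, and *Srf* differed by 0.22 and *Creb1* by 0.07. On the LPS array 5 were lower and 1 higher at 1.5-fold, against 3.95% and 3.63% of all probe sets. The largest were *Mapk14*, the p38α gene (8.69 and 6.70, 3.98-fold lower), the kinases *Rps6ka5* (−0.94) and *Rps6ka3* (−0.78), and the SRF coactivator gene *Mrtfa* (0.84).

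The MAP kinase phosphatases other than *Dusp1* were split. For reference, 16.9% of all probe sets were lower and 13.3% higher in all 3 pairs, and 3.95% were lower and 3.63% higher at 1.5-fold with LPS. Of 11 genes 4 were lower and 4 higher in all 3 pairs, with a median of 0.25, and with LPS 3 were higher (*Dusp16* 1.13, *Dusp5* 1.06 and *Dusp2* 0.93) and 1 lower (*Dusp6* −0.77) at 1.5-fold. Heat shock genes, another rapidly induced group, were 4 lower and 3 higher in all 3 pairs of 13 measured, with a median of 0.06. On the LPS array 3 of the 13 were lower and 0 higher at 1.5-fold, *Hspa1b* (−0.76), *Hsph1* (−0.69) and *Hspa1a* (−0.59). None of these 4 lists had a gene called at an adjusted p under 0.05 by limma, with or without the block.

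The genes whose profile over the 8 arrays was most like the mean of the 10, after subtraction of array medians, were *Nlrp3*, *Chd9*, *Rapgef1* and *Btg2* (Pearson r = 0.99 each) and *Ppp1r14a* (r = 0.98), out of 12356 candidate genes with a mean above the median of all probe sets. The mean of the 10 genes above the array median was 5.87, 6.62 and 5.22 on the WT arrays, 5.15, 5.98 and 4.91 on the Lkb1-deficient arrays, and 5.24 and 4.12 on the control and LPS arrays. *Nlrp3*, the inflammasome sensor, read 8.79, 8.85 and 6.76 in WT, 8.16, 8.26 and 6.36 in Lkb1-deficient DCs, and 7.49 and 6.36 on the control and LPS arrays. The 8 points share the pair structure and the array brightness described above, so r is a description of these arrays only.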

How the data were processed

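RNA from splenic DCs was hybridized to 8 Mouse Gene 2.0 ST arrays. The values deposited by the authors are log2 signals, 1 for each probe set on each array (0.15 to 13.39). They used GeneSpring, and the submitters' notes name MAS5. Beyond that name no source used here describes the summarisation, and none states the normalization between arrays. Probe sets were named from the array annotation (1 symbol for 23521, several for 1820, none for 16004), and per gene the probe set with the highest mean was used. No probe set was filtered, except that the search for similar profiles took 12356 genes with values on all 8 arrays and a mean above the median of all probe sets. The number of arrays limits the precision.

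WT and Lkb1-deficient arrays (6) were compared with limma 3.58.1 in R 4.3.3, without a block because the methods name an unpaired test, and again blocked on replicate number. Benjamini-Hochberg adjustment ran over all 41345 probe sets, and calls were made at an adjusted p under 0.05. The fit was tested on simulated data. Same-numbered arrays correlated at 0.85, 0.80 and 0.74 after removal of group means, and others at −0.61 to −0.13. By the rule of r over 0.1 in every pair the numbers were taken as pairs, although neither labels nor paper say so. Deviations within a group cancel, so the negative values are no separate support, and a shared array structure is not a paired design. Residual degrees of freedom were 4 without the block and 2 with it. LPS minus control was not tested.

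The 10 genes, the other lists and the tests were chosen with earlier results of these data known. Named were all 10 genes, *Stk11*, and per list up to 4 genes with the same sign in all pairs and a 1.5-fold mean difference, up to 4 with the largest LPS difference past 1.5-fold, and the 5 most similar profiles. *Jund*, *Srf*, *Creb1* and *Egr4* were named beyond this rule, after their values were seen. The rule was not applied to the lists of cell type markers. Single genes picked out from those lists, such as *Clec10a*, *Itgam* and *Ccr2*, were also named after their values were seen. Alternatives were quantile normalization, subtraction of array medians, 16 added to linear values, only brighter probe sets, an intensity trend, the methods' t-test, and leaving out arrays or pairs.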

Additional observations from a re-analysis of the deposited data

How the results depend on the processing

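No member was called at an adjusted p under 0.05 in any planned setting, the leave-one-out fits included. With the intensity trend and the block, an alternative chosen after seeing the data, 2 were, *Atf3* (adjusted p = 0.0268) and *Egr1* (adjusted p = 0.0425). The replicate block took the probe sets called from 4 to 95, and the members lower at 1.5-fold with unadjusted p below 0.05 from 1 to 3 (probe sets from 25 to 589). It changed no member's adjusted call.

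Members lower at 1.5-fold with unadjusted p below 0.05 were 2 with quantile normalization or array medians subtracted and 0 with 16 added, brighter probe sets only, the intensity trend or the methods' t-test. They were 3 in each such setting run with the block (medians subtracted, 16 added, brighter probe sets, trend). Without 1 array they were 0 to 4 (4 without WT replicate 3, 2 without KO replicate 1, 0 without WT replicate 1, WT replicate 2 or KO replicate 3), and without 1 pair 3 to 4. Probe sets called were 2 with quantile normalization, 0 with medians subtracted, 16 added or the methods' t-test, 134 with medians subtracted and the block, 12 with 16 added and the block, and, added after seeing the data, 207 with brighter probe sets and the block and 217 with the trend and the block. Without 1 array they were 0 to 10, and without 1 pair 0. Probe sets lower at 1.5-fold with unadjusted p below 0.05 were 246 with quantile normalization, 160 and 480 with medians subtracted without and with the block, 169 with 16 added and the block, 15 and 438 for brighter probe sets without and with the block, and 599 with the trend and the block. Without 1 array they were 23 to 251, and without 1 pair 723 to 855 (754 without pair 3). Members lower by 1.5-fold in all 3 pairs were 3 with quantile normalization and 2 with medians subtracted or 16 added. The share of all probe sets for this count was taken for the deposited values only (0.31%), not in these settings.

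Leaving out 1 array unbalances the pairs, and the difference then ranged from −1.99 to −0.51 for *Egr1*, −1.90 to −0.67 for *Egr2* and −2.06 to −0.88 for *Egr3*, with no change of sign. It changed sign for *Fos* (−0.60 to 0.41), *Fosb* (−1.06 to 0.37), *Jun* (−1.06 to 0.038), *Junb* (−1.01 to 0.38), *Atf3* (−1.28 to 0.23), *Ier2* (−1.10 to 0.090) and *Dusp1* (−0.64 to 0.41). Without a whole pair only *Fos* changed sign (−0.13 to 0.0024). With LPS, 8 members were lower at 1.5-fold and 5 at 2-fold. Against the control and WT arrays, medians subtracted, 9 were lower at 1.5-fold, a count without a share of all probe sets beside it. WT mice were *Lkb1*f/f and control mice, by their label, wild type, so treatment was not the only difference from those arrays. Against those arrays *Egr1* was −3.24, *Egr2* −2.30 and *Egr3* −3.08, and with 16 added *Egr2* was −1.03 and *Egr3* −1.44. Each member has 1 probe set, so the alternative of another probe set gave no value. Array number limits all of these, and the causes were not tested.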
